A study of Mus musculus with 6 samples.

Results

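The BCL2 family comprises the proteins that decide whether the outer mitochondrial membrane stays intact or is opened during apoptosis. The members described here were chosen by name, as the probe sets that the platform annotation maps to 10 listed family genes. Of these, 9 had a probe set and each had exactly 1, among 19938 genes measured on the arrays. They were the pore-forming effector Bak1, the anti-apoptotic genes Bcl2, Bcl2l1 and Mcl1, and the BH3-only genes Bcl2l11, Bid, Bad, Bik and Bmf. The listed effector Bax was not analysed here, since the annotation table used here gives it no probe set.

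The samples were CCR6+ group 3 innate lymphoid cells (ILC3s), sorted from the small intestinal lamina propria of adult C57BL/6 mice. The control group held 3 arrays from Tnfsf11fl/fl mice. The RANKL-deficient group held 3 arrays from mice that carried the same floxed alleles of Tnfsf11, the RANKL gene, together with a Cre transgene. No Cre appears in the labels of the control mice, so an effect of Cre and one of the deletion cannot be told apart. The labels do not say whether arrays of a group came from separate mice, so p-values reflect the spread among these arrays alone, and that spread may be technical.

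In the mitochondrial pathway of apoptosis, BH3-only proteins report stress or the loss of survival signals. They bind the anti-apoptotic members, which otherwise hold the effectors BAX and BAK in check, and some also activate the effectors directly. Once active, BAK and BAX assemble in the outer membrane and release cytochrome c, which leads to caspase activation. Lymphocytes depend on this balance, and cytokines such as IL-7 keep them alive in part through BCL2 and MCL1. Many members are also controlled as proteins, by phosphorylation, sequestration or rapid turnover, which transcript arrays do not measure.

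The cells carried the transcripts of their label. The 8 measured ILC3 and lymphoid tissue inducer markers, among them Il7r, Kit, Il23r and Ccr6, all lay above the median of all genes, with a list mean of 10.55 to 10.71 on the control and 10.54 to 10.72 on the RANKL-deficient arrays (log2). The targeted gene Tnfsf11 was at 8.47 ± 0.26 on the control arrays and at 8.51 ± 0.15 on the others (SD, n = 3 each), and its probe set has no known position relative to the floxed part, so it does not check the labels. Control arrays 1 and 2 stood apart from the other 4, with mean correlations to the rest of 0.960 and 0.970 against 0.975 to 0.977, and with a narrower spread of values over genes (SD 1.86 and 1.93 against 1.99 to 2.01). Each list of markers of other cells that the sort could hold had a median difference below 0, RANKL-deficient minus control. The median over all genes was also below 0 (−0.054). Only 39.5% of all genes, and 54.7% of the genes above the median, had a difference above 0. A difference below 0 was thus common over all genes on these arrays, and more so among genes at low values. The list mean of 5 NK and ILC1 markers ran from 4.23 to 4.72 in control and from 3.91 to 4.22 in RANKL-deficient cells, with 4 of 5 lower and 4 of 5 below the median gene in both groups. Their median difference was −0.31, the farthest below 0 of these lists. Their largest difference was that of Ncr1 (log2 −0.93, limma adjusted p = 0.597), which had no overlap between the groups. The 6 T cell markers had list means of 4.95 to 5.49 and 4.73 to 5.08, with 5 of 6 lower, and their largest difference was that of Cd3g (log2 −1.91, limma adjusted p = 0.408). The lists for B cells (4 of 4 lower), mast cells (4 of 4), epithelium (6 of 7), stroma and endothelium (4 of 5), ILC2s (2 of 2) and myeloid cells (4 of 8) had medians between −0.23 and −0.11. The part of these markers in the results below was not tested, and in sorted bulk cells fewer cells of a type cannot be told apart from less RNA per cell.

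No family member passed the threshold for a changed transcript. The groups were compared with limma, and p-values were adjusted by the Benjamini-Hochberg method across the 19938 genes, with 0.05 as the threshold. Of the 9 members, 0 passed, where 0.00502% of all genes did, which is the single gene Ccr2. At an unadjusted p under 0.05 there were 3 of 9 members (Bak1, Bcl2l1 and Bcl2), all with higher values in RANKL-deficient cells, against 4.25% of all genes in that direction, 3.9% in the other and 8.15% in either. The same 3 members had no overlap between the groups, with all RANKL-deficient arrays above all control arrays, which held for 5.28% of all genes, while 9.08% of all genes were without overlap in the lower direction. An exact two-sided permutation test gave each of these 3 p = 0.1, the smallest that 3 arrays against 3 can give. All 9 members had a positive difference (8 after quantile normalization or cyclic loess, when that of Bcl2l11 turned), where 39.5% of all genes and 54.7% of the genes above the median did, and 8 of the 9 members lay above the median. The median difference of the members was 0.34 on the log2 scale, beside −0.054 over all genes. The members were listed with earlier results of these data known, so these counts describe the family and are no independent evidence of a direction.

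**Figure D1:**
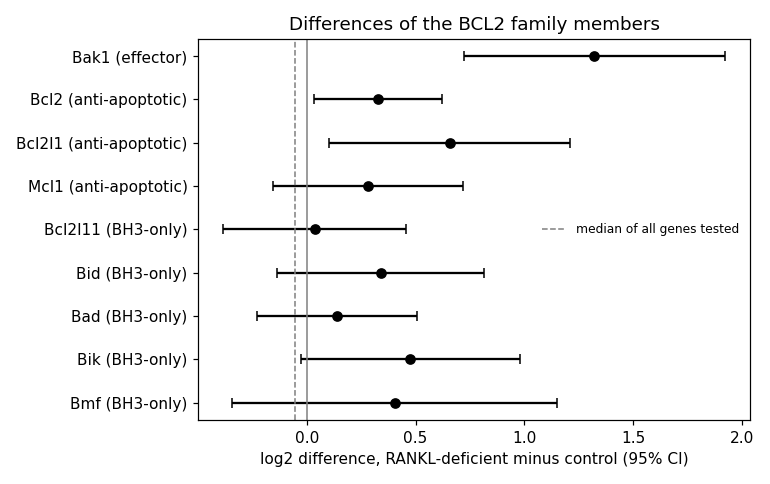
Log2 difference of each member (RANKL-deficient minus control, points) with its 95% confidence interval from limma (bars), and the median of all genes tested (dashed line). The intervals of Bak1, Bcl2 and Bcl2l1 lie above 0, and those of the other 6 members include 0.

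Promoter sequences are shown for Bak1 and Bcl2, since these are members without overlap between the groups whose gene has a single start in the RefSeq promoter table (GRCm38.p6). Each is the 250 bases before the start, 5′ to 3′ on the gene's strand, with motif matches in capitals. The Bak1 window lies at chr17:27028628-27028877 and the Bcl2 window at chr1:106714291-106714540, both on the minus strand.
Bak1: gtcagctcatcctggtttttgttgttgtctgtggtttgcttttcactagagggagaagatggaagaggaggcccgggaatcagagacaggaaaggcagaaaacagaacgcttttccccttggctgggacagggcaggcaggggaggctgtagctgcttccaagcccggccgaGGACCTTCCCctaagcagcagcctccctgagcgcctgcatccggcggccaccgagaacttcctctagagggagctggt
Bcl2: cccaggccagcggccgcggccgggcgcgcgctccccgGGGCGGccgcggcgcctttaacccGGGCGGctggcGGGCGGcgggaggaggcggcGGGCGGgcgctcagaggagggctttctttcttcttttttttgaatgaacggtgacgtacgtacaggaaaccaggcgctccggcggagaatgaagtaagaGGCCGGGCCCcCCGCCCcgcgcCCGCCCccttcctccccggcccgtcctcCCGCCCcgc
Of the 10 listed genes, 9 had windows in the table, 15 windows in all. Both strands were searched for an NF-kB-like pattern (GGG and CC with any 5 bases between them), a STAT pattern (TTCNNNGAA), a FOXO pattern (GTAAACA), the GC box (GGGCGG) and the E-box (CACGTG). The Bak1 window held 1 match, to the loose NF-kB-like pattern, at −78 to −69 from the start. The Bcl2 window held 7 GC boxes and 1 NF-kB-like match, and its G and C content was 74.8%, against 58.4% for Bak1 and a median of 52.4% over all windows. The NF-kB-like pattern occurs in 45.8% of all 32851 windows and the GC box in 32.7%, so both are common in promoter windows. The FOXO pattern, found in 3.17% of all windows, occurred in a window of Bcl2l11, and the STAT pattern in none of the 15. Some NF-kB-like matches overlap GC boxes or read on both strands, and a match describes letters and not a bound site.

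Bak1, which encodes the effector BAK, had the largest difference of the family. On control arrays 1, 2 and 3 it measured 7.65, 8.41 and 8.57 (log2 expression), and on RANKL-deficient arrays 1, 2 and 3 it measured 9.34, 9.73 and 9.54. Every RANKL-deficient array lay above every control array, and control array 1 was the lowest of the 6. The means were 8.21 ± 0.49 (SD, n = 3) and 9.54 ± 0.20 (SD, n = 3), which are 2.5-fold apart (log2 1.32, SE 0.25, 95% confidence interval 0.72 to 1.92). It was larger than the spread between replicates but did not pass over all genes (limma adjusted p = 0.330). In rank by unadjusted p (0.00123), Bak1 was gene 74 of 19938, and 0.311% of all genes had a difference in this direction at least as large. The difference was 1.04 without control array 1 and 0.96 without control arrays 1 and 2, so its sign did not rest on them.

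The anti-apoptotic gene Bcl2l1, whose long product BCL-XL binds BAK and the BH3-only proteins, had the second largest difference. It measured 6.87, 6.35 and 6.89 on control arrays 1, 2 and 3 and 7.40, 6.97 and 7.71 on RANKL-deficient arrays 1, 2 and 3. The groups did not overlap, but RANKL-deficient array 2 lay only just above control array 3. The means were 6.70 ± 0.30 (SD, n = 3) and 7.36 ± 0.37 (SD, n = 3), which are 1.58-fold apart (log2 0.66, SE 0.24, limma adjusted p = 0.583). Its 95% confidence interval ran from 0.10 to 1.21. Without 1 array, the difference lay between 0.48 (without RANKL-deficient array 3) and 0.85 (without RANKL-deficient array 2). The annotation pairs its probe set with several transcripts, so the value does not separate BCL-XL from the short splice form, which promotes death.

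Bcl2, the founding member and a guardian of lymphocytes downstream of IL-7, had a small difference with little scatter. It measured 10.21, 10.26 and 10.45 on the control arrays and 10.58, 10.66 and 10.67 on the RANKL-deficient arrays. All RANKL-deficient arrays lay above all control arrays, although control array 3 came close to the lowest of them. The means were 10.31 ± 0.13 (SD, n = 3) and 10.63 ± 0.048 (SD, n = 3), which are 1.25-fold apart (log2 0.33, SE 0.12, limma adjusted p = 0.597). The 95% confidence interval ran from 0.032 to 0.62. The difference was 0.18 without control arrays 1 and 2, and 0.22 after quantile normalization.

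Mcl1, a short-lived anti-apoptotic protein that restrains BAK, overlapped between the groups. It measured 9.46, 9.91 and 10.10 on the control arrays and 10.03, 10.06 and 10.22 on the RANKL-deficient arrays. Control array 3 lay above 2 of the RANKL-deficient arrays, and the difference of 0.28 (95% confidence interval −0.15 to 0.72, limma adjusted p = 0.707) did not pass. Without control array 1 it was 0.10, and without control arrays 1 and 2 it was 0.0046.

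**Figure D2:**
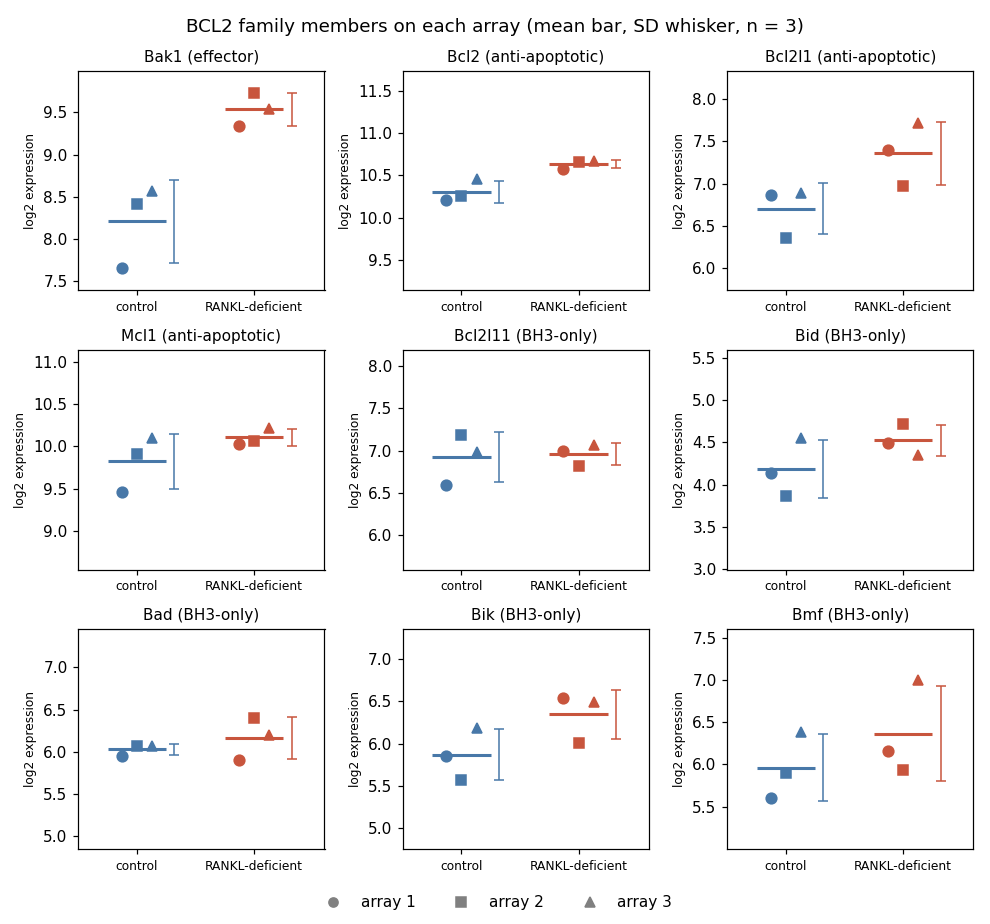
Log2 expression of the 9 measured members on each array (symbols, array 1 to 3 of each group), with group means (bars) and SD (whiskers, n = 3). Every panel spans the same log2 range. The groups do not overlap for Bak1, Bcl2 and Bcl2l1 and overlap for the other 6 members.

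Among the BH3-only genes, Bik and Bmf had the larger differences. Bik, a BH3-only protein of the endoplasmic reticulum, measured 5.85, 5.58 and 6.18 on the control arrays and 6.54, 6.01 and 6.49 on the RANKL-deficient arrays. RANKL-deficient array 2 lay below control array 3, and the difference was 0.48 (95% confidence interval −0.027 to 0.98, limma adjusted p = 0.618). Bmf, which is held by dynein light chains in healthy cells, measured 5.60, 5.89 and 6.39 on the control arrays and 6.16, 5.93 and 7.0 on the RANKL-deficient arrays. Its difference of 0.40 (95% confidence interval −0.34 to 1.15, limma adjusted p = 0.742) depended on RANKL-deficient array 3 and was 0.087 without it. Bmf had the widest spread of the members in the RANKL-deficient group, with an SD of 0.56.

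Bid, which links death receptors to mitochondria once caspase-8 has cleaved it, measured 4.14, 3.87 and 4.55 on the control arrays and 4.50, 4.72 and 4.36 on the RANKL-deficient arrays. The groups overlapped, with a difference of 0.34 (95% confidence interval −0.14 to 0.81, limma adjusted p = 0.687). It was 0.18 without control array 2, 0.52 without control array 3 and −0.028 without control arrays 1 and 2. It was the 1 member whose means lay below the median of all genes (5.12). The arrays give no separate background level to set it against. Bad, which is kept inactive by phosphorylation and binding to 14-3-3 proteins, measured 5.95, 6.07 and 6.07 on the control arrays and 5.91, 6.40 and 6.20 on the RANKL-deficient arrays, a difference of 0.14 (95% confidence interval −0.23 to 0.51, limma adjusted p = 0.815). That of Bad was 0.021 without RANKL-deficient array 2, 0.27 without RANKL-deficient array 1 and 0.066 after quantile normalization.

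Bcl2l11 encodes BIM, the BH3-only protein that drives the death of lymphocytes deprived of cytokines. It had the smallest difference of the family. It measured 6.60, 7.18 and 6.99 on the control arrays and 7.0, 6.82 and 7.06 on the RANKL-deficient arrays. The highest and the lowest of the 6 values were both control arrays, and the means of 6.92 ± 0.30 and 6.96 ± 0.13 (SD, n = 3 each) differed by 0.036 (limma adjusted p = 0.963). The 95% confidence interval of −0.38 to 0.46 leaves room for a moderate difference in either direction. The sign turned under quantile normalization (−0.064), cyclic loess (−0.011) and array weights (−0.075), so no direction is given for Bcl2l11.

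By role, the 3 anti-apoptotic members had differences of 0.28 to 0.66 with a median of 0.33, and the 5 BH3-only members had 0.036 to 0.48 with a median of 0.34. These medians moved with the arrays and the scaling used, and no difference between the roles was tested. Within each array, Bak1 minus Bcl2l1 was 0.79, 2.06 and 1.68 on the control arrays and 1.94, 2.76 and 1.82 on the RANKL-deficient arrays. The groups overlapped, and the difference of 0.67 between them had p = 0.3 (exact two-sided permutation test, n = 3 each). Since 3 arrays against 3 cannot go below 0.1, this test could not have passed and says nothing on whether the 2 genes changed equally. The difference was 0.30 without control array 1, 0.37 without RANKL-deficient array 2 and 0.94 without control array 2.

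The control arrays were less alike than the RANKL-deficient arrays over all genes, and for the members at about the same share. The control SD was the larger for 6 of 9 members, as for 66.4% of all genes. Control array 1 held the lowest of the 6 values for 5 of 9 members, against 17.9% of all genes, and control array 3 was the highest control array for 7 of 9, against 27.5% of all genes. Without control arrays 1 and 2, the median difference of the members was 0.099 in place of 0.34, and Bcl2l11, Bid and Bmf had differences just below 0 (−0.029, −0.028 and −0.021). The differences of Bak1 (0.96) and Bcl2l1 (0.47) remained the largest of the family there. This comparison has 1 control array, which is assumed to vary like the RANKL-deficient arrays, and no member passed in it.

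**Figure D3:**
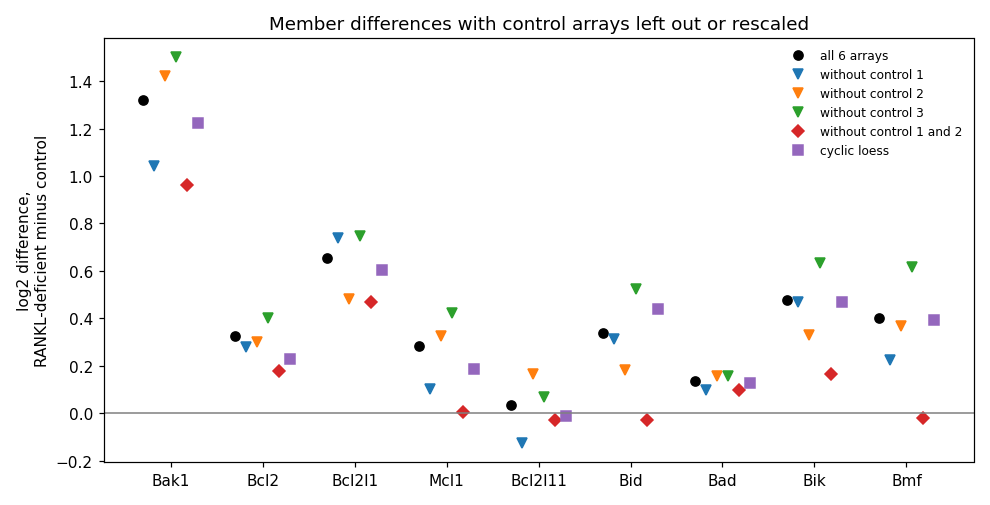
Log2 difference of each member (RANKL-deficient minus control, y axis) with all 6 arrays, with control arrays left out, and after cyclic loess normalization (symbols). Bak1 stays between 0.96 and 1.5, while the differences of Mcl1, Bcl2l11, Bid and Bmf come close to 0 or fall below it without control arrays 1 and 2.

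The other genes of the family did not pass either, and their medians were nearer to 0. Of 6 further genes listed as anti-apoptotic, 3 were measured, with a median difference of 0.14 and 0 at an unadjusted p under 0.05. The smallest p among them was that of Bcl2l10 (−0.22, limma adjusted p = 0.725). Bcl2a1c differed by 0.28 and is uncertain, since near-identical copies exist, and the other 3 Bcl2a1 genes were not analysed here because their probe sets carry several symbols. The 4 further pro-apoptotic genes Bbc3, Pmaip1, Hrk and Bok had differences between −0.13 and 0.047. Bbc3 and Pmaip1 encode PUMA and NOXA, BH3-only proteins induced by p53, and measured 0.034 and −0.098. The 8 measured atypical members had a median of −0.13, with 3 higher and 5 lower, and the smallest p was that of Bnip3, a mitophagy receptor induced by low oxygen (0.50, limma adjusted p = 0.676). The Bnip3 value is from the brighter of its 2 probe sets.

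The genes listed for mitochondrial apoptosis, most of them downstream of BAX and BAK, had a median difference of 0.29, with 14 of 17 higher. Their list mean ran from 6.82 to 7.13 on the control and from 7.18 to 7.27 on the RANKL-deficient arrays. These values include control arrays 1 and 2, and the list was not compared without them. Over all genes 39.5% were higher, and 54.7% of those above the median. At an unadjusted p under 0.05 there were 4 higher and 2 lower, against 8.15% of all genes in either direction, and 0 passed over all genes. The protease HtrA2, which is released from mitochondria and blocks inhibitors of apoptosis, is encoded by Htra2. It measured 7.29, 7.97 and 8.28 on the control arrays and 8.65, 8.76 and 8.54 on the RANKL-deficient arrays, with no overlap (log2 0.80, SE 0.25, limma adjusted p = 0.523). Vdac3, a channel of the outer mitochondrial membrane, measured 8.29, 8.31 and 8.30 on the control arrays and 8.95, 8.66 and 8.67 on the RANKL-deficient arrays (log2 0.46, limma adjusted p = 0.490). These Vdac3 values are from the brightest of its 3 probe sets alone. The inhibitor of apoptosis genes went both ways, with differences of 0.50 for Birc2, −0.32 for Birc3 and 0.37 for Birc5, which also acts in cell division. That of Birc2 is from the brighter of its 2 probe sets. Dffb, the nuclease that cuts DNA during apoptosis, measured 4.42, 4.72 and 4.41 on the control arrays and 4.0, 3.96 and 4.04 on the RANKL-deficient arrays. Its values lay below the median gene in both groups, with no overlap (log2 −0.52, limma adjusted p = 0.436).

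Genes that regulate the members had differences in both directions. Of 15 regulators of member proteins, 11 were higher and 4 lower, with a median of 0.085, where 54.7% of all genes above the median were higher. Pim2, a kinase that phosphorylates BAD and supports survival, measured 7.11, 7.18 and 6.98 on the control arrays and 7.90, 7.38 and 8.52 on the RANKL-deficient arrays (log2 0.84, SE 0.27, limma adjusted p = 0.553). Usp9x, a deubiquitinase that stabilises MCL1, measured 8.67, 8.74 and 8.74 on the control arrays and 8.41, 8.49 and 8.36 on the RANKL-deficient arrays (log2 −0.30, limma adjusted p = 0.597). Neither gene overlapped between the groups, and neither passed over all genes. They were the 1 higher and 1 lower regulator without overlap among the 15. That is near the share over all genes, 14.4% in either direction, so it marks nothing particular to the regulators.

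Of 12 measured transcription factors known to control members, 6 were higher and 6 lower, with a median of −0.026. Myc, which sensitises cells to death, measured 5.54, 6.71 and 5.94 on the control arrays and 6.76, 7.30 and 6.75 on the RANKL-deficient arrays (log2 0.87, limma adjusted p = 0.582). The NF-kB subunit genes went both ways without overlap between the groups, with −0.33 for Rela (limma adjusted p = 0.604) and 0.49 for Rel (limma adjusted p = 0.618), the latter named after its values were seen. Over all genes, 14.4% were without overlap in either direction. The FOXO genes Foxo1, Foxo3 and Foxo4, of a family that can induce Bcl2l11, differed by −0.20, −0.061 and 0.075. The 10 measured p53 target genes outside the family had a median of 0.046 and 0 at an unadjusted p under 0.05, and the smallest p was that of Perp (−0.26, limma adjusted p = 0.658).

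**Figure D4:**
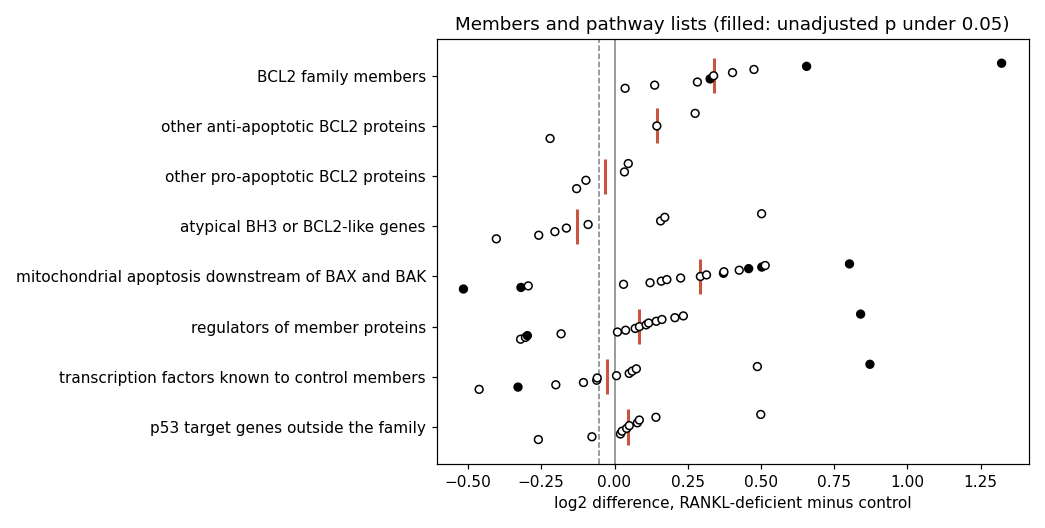
Log2 difference (RANKL-deficient minus control, x axis) of every measured gene in the family and in 7 related lists (circles, filled where the unadjusted p is under 0.05), with list medians (vertical bars), 0 (solid line) and the median of all genes (dashed line). With all 6 arrays, the medians of the members (0.34) and of the genes listed as downstream of BAX and BAK (0.29) lie farthest above the median of all genes (−0.054).

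The transcripts nearest to Bak1 over the 6 arrays were not family members, which the measure used here largely fixed in advance. Likeness was the root mean square distance between log2 profiles, each centred on its own mean, and the nearest genes were Ostm1 (0.13), Ppp2r5c (0.18), Ptpa (0.19), Zbtb1 (0.20) and Gbp5 (0.20). This distance counts the size of a difference, so members with much smaller differences than Bak1 could not come near it. Ostm1 encodes a lysosomal membrane protein, Ppp2r5c and Ptpa a regulatory subunit and an activator of the phosphatase PP2A, Zbtb1 a transcription factor of lymphoid cells and Gbp5 an interferon-induced GTPase. Ostm1 measured 6.13, 7.05 and 7.05 on the control arrays and 7.65, 8.0 and 7.80 on the RANKL-deficient arrays. It shared with Bak1 the low value on control array 1 and the higher RANKL-deficient values, as selection by this distance requires. The differences of the 5 genes ran from 0.99 to 1.08, and none passed (limma adjusted p from 0.423 to 0.557). Of the 4 probe sets of Ppp2r5c the other 3 differed by −0.55 to 0.17, so this likeness holds for its brightest probe set. Among the members, Mcl1 was nearest to Bak1, at a distance of 0.54.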

How the data were processed

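Each sample was hybridised to 1 Affymetrix mouse array, from 2 ng of total RNA amplified with a NuGEN kit, per the labels' protocols. The deposited file gives log2 expression for 35556 probe sets. Per the submitters' processing notes, the authors used RMA and Affymetrix Expression Console to obtain them. No version, setting or genome build is given in the sources used here. RMA normalizes probe intensities across arrays, so a shift of all genes could go unseen, although the spread of the deposited values still differed between arrays (SD over genes 1.86 to 2.01). The number of arrays limits the precision.

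Probe sets with 1 symbol (21789; 1621 had several and 12146 none in the annotation table) were named through the platform annotation, updated by Entrez identifier against RefSeq (GRCm38.p6). For the 999 genes with several probe sets, the one with the highest mean was used, with no filter on low values. Groups and replicate numbers came from the sample titles. The groups were compared over 19938 genes by lmFit and eBayes of limma 3.58.1 under R 4.3.3 (two-sided, no block), and the procedure was tested on simulated data. Single values were also compared by exact permutation over arrays.

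All 9 measured members were named. Of each related list, genes at an unadjusted p under 0.05 were named, or else the gene with the smallest p, and the 5 genes nearest to Bak1. Other genes were named after their values were seen. The members and lists were chosen with earlier results of these data known. Alternatives were the replicate block, arrays left out, 3 other scalings, probe set rules, a filter, array weights and other eBayes options.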

Additional observations from a re-analysis of the deposited data

How the results depend on the processing

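In all 16 alternatives 0 members passed the threshold, and of 143 member differences 135 kept their sign. The replicate block, the filter, the probe set rules and the other eBayes options leave each member's difference as it was. Signs kept under those settings could not have turned and say nothing on robustness. The 8 differences that turned were of members with adjusted p from 0.687 to 0.963. Bcl2l11 went to −0.13 without control array 1, −0.015 without RANKL-deficient array 3, −0.029 without control arrays 1 and 2, −0.064 after quantile normalization, −0.011 after cyclic loess and −0.075 with array weights, and its range without 1 array was −0.13 to 0.17. Bid (−0.028) and Bmf (−0.021) turned without control arrays 1 and 2, where the members' median moved from 0.34 to 0.099. That median ran from 0.28 to 0.52 without 1 array. The cause was not tested.

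The count of genes past the threshold over the whole table, 1 (Ccr2), was 0 with the replicate block, without control arrays 1 and 2 and with every probe set tested, 2 with eBayes trend and robust options, and 0 to 1 without 1 array. Same-numbered arrays did not deviate together (correlations −0.023, 0.050 and 0.027), so the numbers were not taken as pairs. With the replicate block Bak1 had an adjusted p of 0.447 by limma, and over all alternatives its adjusted p ran from 0.190 to 0.816. The planned comparison of Bak1 with Bax was not run, since Bax was not analysed here. Bak1 minus Bcl2l1 had its lowest value, 0.30, when control array 1 was left out and its highest, 0.94, when control array 2 was, and it was 0.67 with the replicate block (exact p = 0.25, the smallest that 3 pairs can give).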
